A study of Homo sapiens with 9 samples.

Results

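The genes described here belong to the integrated stress response and to its downstream programme of amino acid supply and tRNA charging. They were taken by symbol from a list drawn up for this pathway, and all 43 symbols were found among the 61544 genes listed in the count table. All 43 also passed the expression filter, which kept 14727 genes for testing. By role they comprise 8 regulators, 5 stress effectors, 10 enzymes of amino acid synthesis and folate metabolism, 7 amino acid transporters, and a group of 13 formed by 12 cytosolic tRNA synthetases and the tRNA exporter XPOT.

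In the integrated stress response, several kinases that sense different stresses phosphorylate the initiation factor eIF2, which lowers general protein synthesis and at the same time favours translation of the mRNA for the transcription factor ATF4. ATF4 then dimerizes with C/EBP-family partners and drives genes that import and synthesize amino acids, charge tRNAs and adjust redox balance, while DDIT3 (CHOP) and TRIB3 tune the response and PPP1R15A (GADD34) brings a phosphatase to eIF2 to end it. ATF4 is controlled largely at the level of translation, which RNA-seq does not measure.

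HMC3 is an immortalized human microglial cell line, here with wild-type genotype throughout. Cells were exposed for 6 days to a cocktail of the autophagy inhibitor SBI-0206965, the DNA glycosylase inhibitor O-151 and lopinavir, which blocks maturation of lamin A. The SLO group received 10 μM SBI-0206965, 1 μM O-151 and 1 μM lopinavir, the SLO ½ group received SBI-0206965 at 5 μM with each of the other compounds at 0.5 μM, and the VEH group received the solvent dimethyl sulfoxide. Each group held 3 libraries of poly-A RNA. The compounds were given together in both treated groups, so their separate effects cannot be told apart, and nothing in the labels says that replicates were separate cultures, so the p-values measure the spread between these samples only. The design set each dose against VEH and thus asks what the cocktail does to these transcripts at each dose.

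The libraries held between 14834295 and 19674841 reads in genes, and the 43 genes took between 0.655% and 0.706% of them. The share of mitochondrial reads ranged over 1.30% to 1.61% for VEH, 2.30% to 2.86% for SLO ½ and 2.51% to 3.12% for SLO, and its part in the results below was not tested. Defining markers of microglia were nearly absent: AIF1, CX3CR1, P2RY12, TMEM119, SPI1, TYROBP and PTPRC each had at most 2 counts in any library. ITGAM reached at most 7 counts and CD68 at most 4. The summed level of 12 microglia and macrophage markers spanned 2.59 to 4.07 TPM (transcripts scaled to gene length and library size) for VEH, 5.83 to 8.66 TPM for SLO ½ and 7.07 to 8.70 TPM for SLO. Most of that sum came from CD14, TREM2 and CSF1R, which passed the expression filter at low counts. In VEH, SLO ½ and SLO the means of CD14 were 1.61, 1.94 and 2.85 TPM. Those of TREM2 were 1.37, 3.73 and 3.61 TPM, and those of CSF1R 0.178, 0.567 and 0.645 TPM. The collagen gene COL1A1 stood at a mean of 1237 TPM in VEH, and 4 fibroblast and mural markers summed to 1415 to 1647 TPM for VEH, 1689 to 1721 TPM for SLO ½ and 1995 to 2084 TPM for SLO. COL1A1 made up most of that sum, whereas PDGFRB had means of 60.2, 41.1 and 49.2 TPM and COL1A2 means of 41.5, 37.6 and 48.9 TPM in the same order of groups. THY1 had means of 180, 273 and 234 TPM and was thus highest in SLO ½, where PDGFRB and COL1A2 were lowest. As in any bulk sample, fewer cells expressing a gene and less RNA per cell cannot be told apart. Named pseudogenes of ATF4, ASNS, PSAT1, MTHFD2, CARS1, PSPH, SLC7A5, XPOT and 4 further synthetases are listed too, with 0 to 39 counts for each gene's copies over all libraries, and reads that match a copy equally well are not counted, so these levels are uncertain to that extent.

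With SLO against VEH, 16 of the 43 genes rose and 21 fell at an adjusted p below 0.05 (edgeR's quasi-likelihood test, Benjamini-Hochberg over 14727 genes), while 64.9% of all tested genes were called, 32.9% higher and 32.1% lower. Thus 86.0% of the 43 genes were called, with a median log2 fold change of -0.08 beside 0.01 over all genes. In 39 of the 43 the SLO and VEH libraries did not overlap, which held for 66.7% of all genes, and 6 of the 43 changed more than 2-fold, against 11.8% of all genes. Calls were thus more frequent than over all genes, while most changes stayed below 2-fold, as they did over all genes. The part of read counts in the share called was not tested.

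With SLO ½ against VEH, 8 genes rose and 22 fell, where 52% of all genes were called, 26.7% higher and 25.3% lower. Only ATF3 changed more than 2-fold at this dose, a size reached by 6.87% of all genes. The median log2 fold change was -0.13 beside 0.02 over all genes. With SLO against SLO ½, 15 genes were higher and 13 lower, where 41.1% of all genes were called, 20.8% higher and 20.3% lower. The libraries of the 2 doses did not overlap in 31 of the 43, as in 51% of all genes, and 1 gene, NUPR1, differed more than 2-fold, against 2.56% of all genes. Both comparisons with VEH use the same VEH libraries, so values at the 2 doses are given side by side only.

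**Figure D1:**
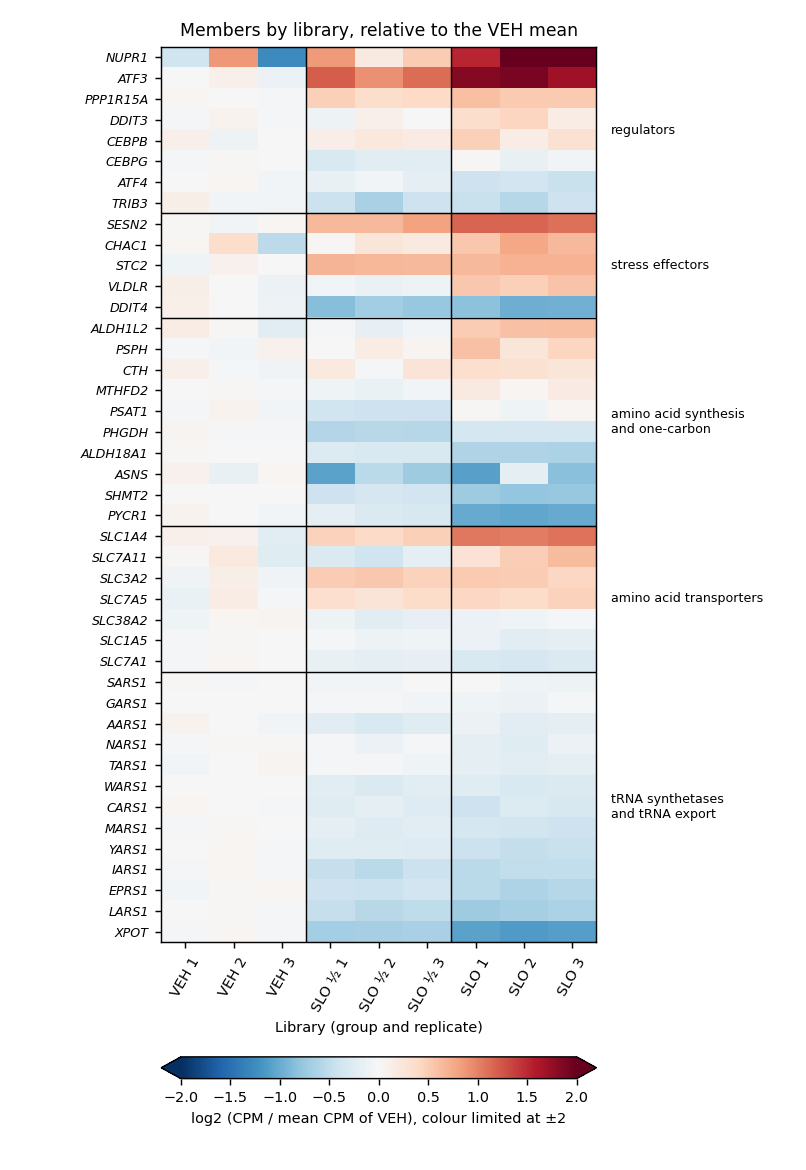
Heat map of the 43 genes (rows, grouped by role) in the 9 libraries (columns), coloured by the log2 ratio of CPM (counts scaled to library size) to the VEH mean, with colours limited at 2 in either direction. The 13 genes of the tRNA synthetase and tRNA export group are mostly pale to deep blue in the treated libraries, whereas ATF3, SESN2 and SLC1A4 are red and deepen from SLO ½ to SLO.

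ATF4 and its partners bind a composite C/EBP-ATF response element (CARE), and the RefSeq promoter windows (GRCh38.p14, 250 bases before to 50 after each start site) were searched for its letters TGATGNAA on both strands. The windows covered 35 of the 43 genes; SHMT2, PSPH, PYCR1, YARS1, ALDH1L2, SLC7A11, LARS1 and NUPR1 had none in the table. At least 1 match was found in 15 of the 35 (42.9%), namely AARS1, ASNS, ATF3, CARS1, CEBPG, CHAC1, GARS1, IARS1, MARS1, NARS1, SLC1A4, SLC1A5, SLC3A2, SLC7A1 and TARS1, compared with 4.46% of the 27305 genes in the table. Because the 43 genes were picked partly as known ATF4 targets, this comparison is a description and not a test. A match in any window counted, and the 35 genes had 53 windows, against 35116 for the 27305 genes. Among genes with a window, 4 of 12 that rose with SLO and 9 of 17 that fell held a match. The stretches below are shown because they carry the element that defines the pathway and belong to genes that moved in different directions. They read 5′ to 3′ on the gene's strand, and the capitals mark the match, which in AARS1 and CHAC1 lies on the opposite strand.
ATF3, chr1:212565190-212565249, plus strand: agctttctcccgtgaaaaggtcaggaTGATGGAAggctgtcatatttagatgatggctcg
CHAC1, chr15:40953251-40953280, plus strand: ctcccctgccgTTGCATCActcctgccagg
CEBPG, chr19:33374045-33374104, plus strand: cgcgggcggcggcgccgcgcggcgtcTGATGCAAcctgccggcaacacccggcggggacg
ASNS, chr7:97872458-97872487, minus strand: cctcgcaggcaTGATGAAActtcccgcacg
SLC1A5, chr19:46784893-46784922, minus strand: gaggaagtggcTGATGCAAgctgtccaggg
AARS1, chr16:70289675-70289704, minus strand: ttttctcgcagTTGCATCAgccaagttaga

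With SLO, ATF3 and CHAC1 rose, ASNS, SLC1A5 and AARS1 fell, and CEBPG was not called, so matches were found in the windows of genes of every outcome. A window is set by a RefSeq start site, and of the 6 stretches the one of ATF3 lies outside the span that the count table gives for its gene, while the other 5 lie inside theirs. The other motifs searched were the AP-1 site TGANTCA (2 of 35 genes, 5.71%, against 9.37% of all genes), the E-box CACGTG (5 of 35, 14.3%, against 8.77%), the antioxidant element TGACNNNGC (14 of 35, 40.0%, against 16.1%), the endoplasmic reticulum stress element, with no match in the 35 genes and in 0.0916% of all genes, and the interferon-stimulated response element, found only in WARS1 (2.86%, against 4.38%). Overlapping letters are shared in SLC3A2, where the AP-1 and antioxidant matches start at the same base. WARS1 encodes the tryptophanyl-tRNA synthetase, which is known as an interferon-inducible gene, and its match is shown for that reason.
WARS1, chr14:100375383-100375412, minus strand: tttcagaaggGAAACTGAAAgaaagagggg

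Among the 8 regulators, 5 rose and 2 fell with SLO (62.5% and 25%, against 32.9% and 32.1% of all genes). With SLO ½, 3 rose and 3 fell (37.5% each, against 26.7% and 25.3%). ATF4 (chromosome 22, 39519695 to 39522683, GRCh38) lay at 251, 255 and 238 CPM (read counts scaled to library size) in the VEH libraries, at 223, 239 and 219 in SLO ½ and at 186, 190 and 183 in SLO. Every SLO library was below every SLO ½ and VEH library, whereas the highest SLO ½ library reached into the VEH range. The RNA of this central factor thus fell by 0.41 on the log2 scale with SLO (SE 0.0421, adjusted p = 1.1e-09) and by 0.13 with SLO ½ (SE 0.0416, adjusted p = 0.012). The smaller change was lost without SLO ½ replicate 1 (adjusted p = 0.054) or replicate 3 (0.084) and when libraries were scaled by size alone (0.126).

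ATF3 (chromosome 1, 212565334 to 212620777), an ATF4 target that is itself a stress-responsive transcription factor, moved the other way. It lay at 11.7, 12.7 and 10.9 CPM in VEH, at 27.1, 22.2 and 25.6 in SLO ½ and at 41.9, 43.7 and 37.9 in SLO. The 3 groups were fully separated and stepped up with dose. The log2 fold change was 1.09 with SLO ½ (SE 0.0878, adjusted p = 2.2e-11), 1.82 with SLO (SE 0.0825, adjusted p = 2.0e-17) and 0.72 between the doses (SE 0.0723, adjusted p = 3.4e-09), and the 3.52-fold rise with SLO placed it at percentile 96.6 of all tested genes.

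PPP1R15A, the phosphatase subunit that reverses eIF2 phosphorylation, lay at 105, 103 and 100 CPM in VEH, 143, 132 and 136 in SLO ½ and 155, 148 and 148 in SLO. Treated libraries were all above VEH, with most of the step already present in SLO ½. The log2 fold changes were 0.41 (SE 0.0429, adjusted p = 3.8e-09) and 0.55 (SE 0.0429, adjusted p = 3.4e-12). The further 0.14 between the doses (adjusted p = 0.0082) was lost without SLO ½ replicate 2 (0.066) or SLO replicate 1 (0.054).

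DDIT3, which encodes the pro-apoptotic factor CHOP, was at 15.7, 16.6 and 15.4 CPM in VEH, 14.9, 17.1 and 15.9 in SLO ½ and 20.3, 21.4 and 17.7 in SLO. VEH and SLO ½ overlapped, and SLO lay above both. Its log2 fold change was 0.01 with SLO ½ (95% interval -0.17 to 0.18, adjusted p = 0.942) and 0.32 with SLO (SE 0.0838, adjusted p = 0.0013). TRIB3, a pseudokinase that restrains ATF4 and CHOP, went down instead, from 23.4, 20.7 and 20.7 CPM in VEH to 16.1, 13.8 and 16.2 in SLO ½ and 15.8, 14.5 and 16.3 in SLO. The treated groups overlapped each other and not VEH, with log2 fold changes of -0.49 (SE 0.0821, adjusted p = 1.1e-05) and -0.48 (SE 0.083, adjusted p = 1.1e-05). Thus DDIT3 and TRIB3, both textbook targets of ATF4, moved in opposite directions with SLO.

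The remaining regulators were 2 C/EBP proteins that pair with ATF4 and the small chromatin protein NUPR1. CEBPB rose with SLO (log2 fold change 0.32, adjusted p = 2.0e-04) and narrowly with SLO ½ (0.17, adjusted p = 0.044), a call that was lost on leaving out any 1 of VEH replicates 2 and 3, the 3 SLO ½ libraries and SLO replicate 3 (adjusted p = 0.055 to 0.189). CEBPG fell by 0.25 with SLO ½, was not called with SLO (-0.06), and was higher in SLO than in SLO ½ (0.19, adjusted p = 0.0027). NUPR1 had only 2 to 17 counts a library and lay at 0.190, 0.460 and 0.104 CPM in VEH, 0.454, 0.286 and 0.359 in SLO ½ and 0.726, 1.00 and 1.06 in SLO. The SLO libraries stood above all others, and the log2 fold change of 1.92 carried a wide 95% interval of 1.03 to 2.80 (adjusted p = 3.0e-04). In the reference annotation 16.5% of the exon bases of NUPR1 and 8.03% of those of DDIT3 are shared with another gene on the same strand.

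**Figure D2:**
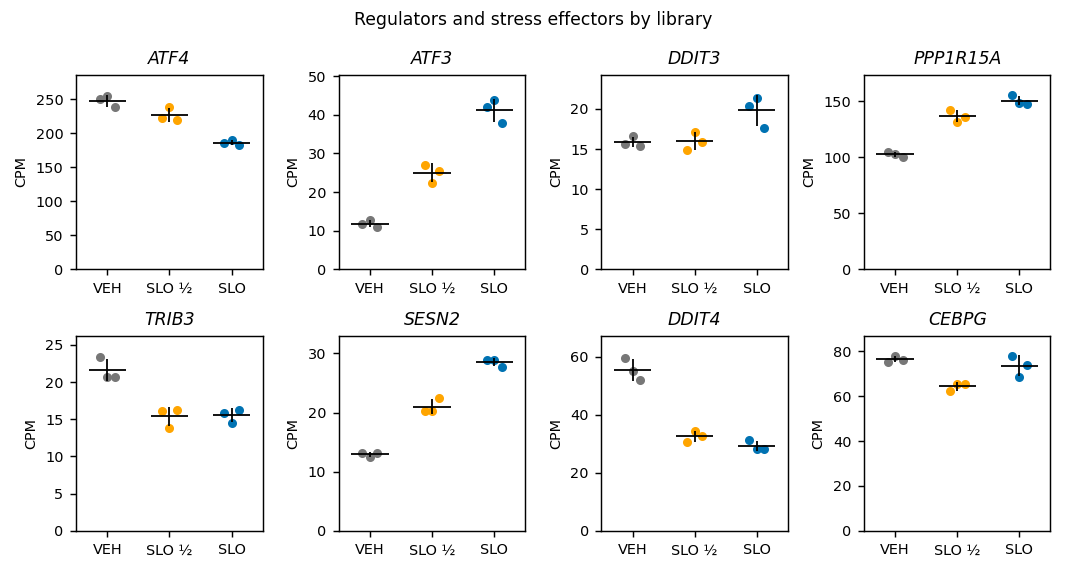
CPM (y axis, from 0) of 8 regulators and stress effectors in each library of VEH, SLO ½ and SLO (x axis), with points for libraries, a horizontal line for the mean and a vertical line for the SD (n = 3). ATF3, PPP1R15A and SESN2 step up with dose, ATF4 steps down, and TRIB3 and DDIT4 are as low in SLO ½ as in SLO or nearly so.

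All 5 stress effectors were called with SLO, 4 rising and 1 falling (32.9% and 32.1% of all genes), with a median log2 fold change of 0.68. SESN2 (chromosome 1, 28259518 to 28282491), a leucine sensor that dampens mTORC1, was at 13.1, 12.4 and 13.2 CPM in VEH, 20.3, 20.2 and 22.5 in SLO ½ and 28.9, 28.8 and 27.7 in SLO. The groups did not overlap at any step. Its log2 fold change was 0.70 with SLO ½ (SE 0.0776, adjusted p = 1.3e-08), 1.14 with SLO (SE 0.0748, adjusted p = 8.3e-14) and 0.44 between the doses (adjusted p = 6.0e-06).

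DDIT4 (REDD1), the other mTORC1 inhibitor of the group, went the opposite way. It lay at 59.4, 54.9 and 51.8 CPM in VEH, 30.7, 34.3 and 32.7 in SLO ½ and 31.2, 28.0 and 28.3 in SLO. All treated libraries were far below VEH and the doses overlapped, with log2 fold changes of -0.76 (SE 0.0619, adjusted p = 2.6e-11) and -0.92 (SE 0.0635, adjusted p = 2.4e-13). The difference between the doses, -0.16, was not called (adjusted p = 0.064), although it passed without VEH replicate 1 (0.044), SLO ½ replicate 1 (0.036) or SLO replicate 1 (0.027). The mTORC1 inhibitors of this list were therefore changed at both doses and in opposite directions.

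STC2, a secreted stanniocalcin induced by ATF4, was the effector with the highest level per length (a mean of 425 TPM in VEH). It was at 429, 485 and 458 CPM in VEH, 735, 727 and 719 in SLO ½ and 720, 743 and 737 in SLO, so that the rise was complete at the lower dose. The log2 fold changes were 0.67 (SE 0.0421, adjusted p = 1.2e-13) and 0.68 (SE 0.0421, adjusted p = 2.3e-14), and the doses differed by 0.01 (95% interval -0.07 to 0.10). VLDLR, the very low density lipoprotein receptor, showed a different shape, with 89.9, 82.7 and 76.9 CPM in VEH, 80.2, 76.3 and 77.7 in SLO ½ and 121, 115 and 123 in SLO. Its SLO libraries stood alone at the top, 0.53 above VEH on the log2 scale (SE 0.0492, adjusted p = 1.5e-10) and 0.62 above SLO ½ (SE 0.0493, adjusted p = 4.1e-11). CHAC1, which degrades glutathione, rose with SLO (0.68, adjusted p = 2.7e-04) and was not called with SLO ½ (0.19, adjusted p = 0.338). Without VEH replicate 3 VLDLR was also called lower with SLO ½ (-0.15, adjusted p = 0.021), and without VEH replicate 2 CHAC1 was called higher there (0.39, adjusted p = 0.048).

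In amino acid synthesis and folate metabolism, 3 of 10 enzymes rose and 5 fell with SLO, beside 32.9% and 32.1% of all genes. With SLO ½ none rose and 6 fell, beside 26.7% and 25.3% of all genes. The median log2 fold changes were -0.17 with SLO and -0.28 with SLO ½. The serine pathway differed between the doses. PSAT1 (chromosome 9, 78297125 to 78330093), the aminotransferase of serine synthesis, lay at 182, 195 and 179 CPM in VEH, 140, 139 and 139 in SLO ½ and 189, 176 and 190 in SLO. It was thus lower in SLO ½ than in every other library, and SLO overlapped VEH. The log2 fold change was -0.41 with SLO ½ (SE 0.0429, adjusted p = 4.2e-09), 0.00 with SLO (95% interval -0.09 to 0.08) and 0.40 between the doses (SE 0.0429, adjusted p = 1.0e-08).

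PHGDH, which catalyses the first step of serine synthesis, was at 90.8, 85.0 and 85.4 CPM in VEH, 58.3, 59.5 and 58.8 in SLO ½ and 68.2, 69.0 and 69.2 in SLO. Both doses were below VEH and SLO was the higher of the treated groups (-0.56 with SLO ½, -0.34 with SLO, 0.22 between the doses, the last with adjusted p = 2.7e-04). PSPH, the final phosphatase of the pathway, was not called with SLO ½ (0.07, 95% interval -0.13 to 0.26) and rose with SLO (0.42, adjusted p = 2.5e-04). All 3 enzymes of serine synthesis were therefore higher with SLO than with SLO ½, the PSPH difference being 0.36 (adjusted p = 0.0024).

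SHMT2, the mitochondrial enzyme that turns serine into glycine and feeds the folate cycle, fell stepwise instead. Its level was 152, 153 and 150 CPM in VEH, 114, 120 and 117 in SLO ½ and 92.6, 88.9 and 90.0 in SLO, with no overlap between groups. The log2 fold changes were -0.37 (SE 0.0402, adjusted p = 6.5e-09), -0.75 (SE 0.0414, adjusted p = 2.0e-15) and -0.37 between the doses (SE 0.042, adjusted p = 3.4e-08). Of the other mitochondrial folate enzymes among the 43, ALDH1L2 rose with SLO (0.57, adjusted p = 4.8e-08) and was not called with SLO ½ (-0.08, adjusted p = 0.392), although it passed there as lower without VEH replicate 3 (-0.18, adjusted p = 0.041). MTHFD2 rose slightly with SLO (0.13, adjusted p = 0.0077), a call lost without SLO replicate 1 (0.057), and was not called with SLO ½ (-0.09, adjusted p = 0.066), where it passed without VEH replicate 3 (0.047) or SLO replicate 2 (0.039).

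Both listed genes of proline synthesis fell. PYCR1 (chromosome 17, 81932384 to 81942412), which makes proline in mitochondria, lay at 77.3, 73.6 and 71.1 CPM in VEH, 65.6, 60.4 and 59.4 in SLO ½ and 36.7, 35.9 and 36.7 in SLO. The drop was small at the lower dose and large at the full dose, with log2 fold changes of -0.26 (SE 0.05, adjusted p = 7.8e-05), -1.02 (SE 0.0539, adjusted p = 6.1e-16) and -0.76 between the doses (SE 0.0547, adjusted p = 5.1e-12). In the reference annotation 14.1% of its exon bases are shared on the same strand with MYADML2, which had 1 count over all libraries. ALDH18A1, the enzyme before it, fell by 0.29 and 0.61 (adjusted p = 2.6e-07 and 6.1e-14).

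ASNS, asparagine synthetase and a much used reporter of ATF4 activity, was barely detected here. It held 1.78, 1.51 and 1.72 CPM in VEH, 0.795, 1.14 and 1.02 in SLO ½ and 0.787, 1.47 and 0.931 in SLO. Its treated libraries were below VEH, but the SLO libraries spread almost up to it. The log2 fold change was -0.76 with SLO ½ (SE 0.266, adjusted p = 0.018) and -0.64 with SLO (SE 0.265, adjusted p = 0.035). Both calls were fragile: with SLO the adjusted p was 0.080 without VEH replicate 1, 0.083 without VEH replicate 3, 0.165 without SLO replicate 1 and 0.106 without SLO replicate 3, and with SLO ½ it was 0.050 without VEH replicate 3 and 0.084 without SLO ½ replicate 1. In the reference annotation 2415 of its 4896 exon bases (49.3%) lie on the same strand as an unnamed long noncoding RNA gene that had 42 counts over all libraries, and reads in shared bases are left uncounted as ambiguous, so the low level of ASNS is uncertain. CTH, which makes cysteine from cystathionine, was not called at either dose (0.15 and 0.30, adjusted p = 0.351 and 0.051). With SLO it passed as higher without VEH replicate 1 (0.046) and when libraries were scaled by size alone (0.016). It also passed there with at least 10 counts required in every library (0.034) and with limma on TPM (0.024 to 0.047).

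**Figure D3:**
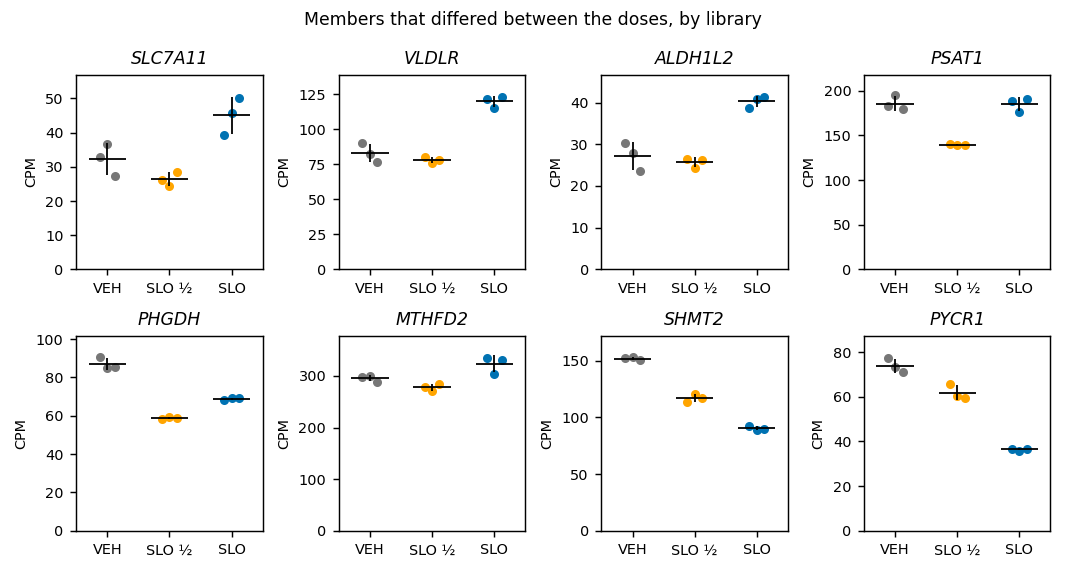
CPM (y axis, from 0) of 8 genes that differed between the doses, in each library of VEH, SLO ½ and SLO (x axis), with the mean as a horizontal line and the SD as a vertical line (n = 3). SLC7A11, PSAT1 and PHGDH are lowest in SLO ½, VLDLR and ALDH1L2 are highest in SLO, and SHMT2 and PYCR1 step down.

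Of the 7 amino acid transporters, 4 rose and 2 fell with SLO (57.1% and 28.6%, against 32.9% and 32.1% of all genes). With SLO ½, 3 rose and 3 fell (42.9% each, against 26.7% and 25.3%). SLC1A4 (chromosome 2, 64988477 to 65023865), a carrier of alanine, serine and cysteine, had the largest rise of the group. It was at 37.7, 37.5 and 30.6 CPM in VEH, 48.7, 46.0 and 49.0 in SLO ½ and 73.2, 71.9 and 74.9 in SLO. No group overlapped another, and the log2 fold change was 0.45 with SLO ½ (SE 0.0639, adjusted p = 9.5e-07), 1.06 with SLO (SE 0.0614, adjusted p = 4.8e-15) and 0.62 between the doses (SE 0.0586, adjusted p = 1.3e-09).

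SLC3A2 encodes the heavy chain that brings several light chains to the cell surface, among them the leucine carrier SLC7A5 and the cystine carrier SLC7A11. It lay at 118, 134 and 118 CPM in VEH, 174, 180 and 171 in SLO ½ and 177, 176 and 164 in SLO. The treated groups overlapped each other and stood above VEH, with log2 fold changes of 0.51 (SE 0.0478, adjusted p = 5.5e-10) and 0.49 (SE 0.048, adjusted p = 5.1e-10) and a difference of -0.02 between the doses (95% interval -0.12 to 0.07). SLC7A5 rose with it at both doses (0.32 and 0.41, adjusted p = 4.8e-06 and 3.3e-08).

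SLC7A11 (chromosome 4, 138164097 to 138242349), the light chain of the cystine and glutamate exchanger, was the only one of the 43 genes called in opposite directions at the 2 doses, which happened in 0.937% of all tested genes. It was at 32.8, 36.8 and 27.3 CPM in VEH, 26.3, 24.5 and 28.6 in SLO ½ and 39.3, 45.6 and 50.2 in SLO. SLO stood above every other library, whereas SLO ½ and VEH overlapped. The log2 fold change was 0.49 with SLO (SE 0.0848, adjusted p = 1.1e-05), 0.77 between the doses (SE 0.0867, adjusted p = 3.2e-08) and -0.28 with SLO ½ (SE 0.0904, adjusted p = 0.011). The call with SLO ½ was lost without VEH replicate 2 (adjusted p = 0.0996), without SLO ½ replicate 2 (0.068) and with DESeq2 (0.082).

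The other 3 transporters moved little. SLC7A1, which carries arginine and lysine, fell at both doses (-0.17 and -0.31, adjusted p = 7.0e-04 and 6.0e-08). SLC1A5, the glutamine carrier, fell with SLO (-0.18, adjusted p = 3.7e-04) and was not called with SLO ½ (-0.07, adjusted p = 0.146). SLC38A2, a small neutral amino acid carrier and the most abundant of the 43 genes in VEH at a mean of 599 TPM, fell with SLO ½ (-0.15, adjusted p = 0.0037) and was not called with SLO (-0.08, adjusted p = 0.115), where it passed without VEH replicate 1 (-0.13, adjusted p = 0.013).

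**Figure D4:**
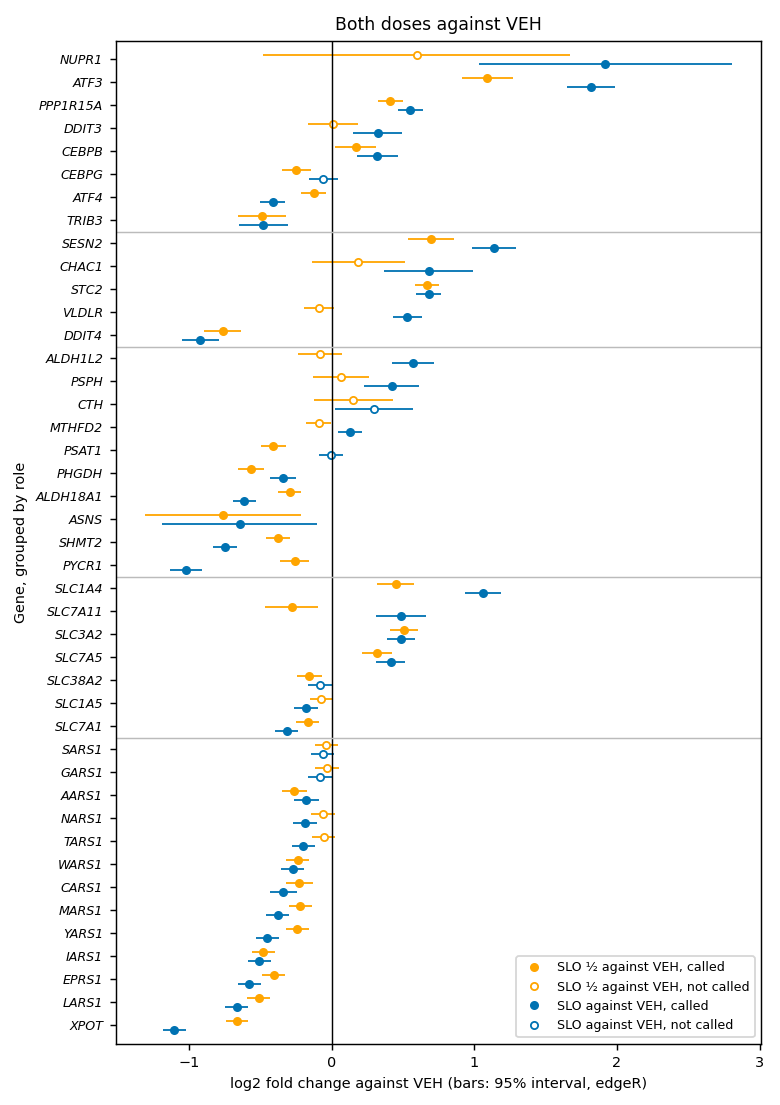
Log2 fold change against VEH (x axis) of the 43 genes (y axis, grouped by role) with SLO ½ (orange) and SLO (blue), with 95% intervals as bars, filled where called and open where not. Points of the tRNA synthetases all lie left of 0, NUPR1 and ASNS have the widest intervals, and SLC7A11 is the only gene filled on both sides of 0.

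The tRNA synthetases join each amino acid to its tRNA, and XPOT carries tRNAs out of the nucleus. None of these 13 genes rose at either dose, where 32.9% of all genes rose with SLO and 26.7% with SLO ½. Of the group, 11 fell with SLO and 9 with SLO ½ (median log2 fold change -0.34 and -0.24), beside 32.1% and 25.3% of all genes. Summed over the group, the level spanned 2079 to 2151 TPM for the VEH libraries, 1685 to 1762 TPM for SLO ½ and 1587 to 1644 TPM for SLO, so that the groups stood apart and stepped down. Across all settings tried, the number that fell stayed at 11 with SLO and at 9 or 10 with SLO ½.

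XPOT (chromosome 12, 64404392 to 64451125) had the largest fall of the 43 genes with SLO. It lay at 424, 445 and 426 CPM in VEH, 270, 273 and 274 in SLO ½ and 205, 197 and 202 in SLO. Replicates lay close together and the groups far apart. Its log2 fold change was -0.66 with SLO ½ (SE 0.0381, adjusted p = 1.3e-14), -1.10 with SLO (SE 0.0388, adjusted p = 6.1e-20) and -0.44 between the doses (SE 0.0391, adjusted p = 4.1e-10), and the change with SLO stood at percentile 1.62 of all tested genes.

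LARS1, the leucyl-tRNA synthetase and a leucine sensor for mTORC1, was at 367, 370 and 358 CPM in VEH, 265, 249 and 256 in SLO ½ and 223, 231 and 236 in SLO. It fell by 0.51 (SE 0.0393, adjusted p = 9.5e-12) and by 0.67 (SE 0.0396, adjusted p = 9.6e-15), with most of the drop at the lower dose. YARS1, for tyrosine, was at 168, 172 and 162 CPM in VEH, 142, 142 and 140 in SLO ½ and 124, 120 and 123 in SLO. Here the groups stepped down evenly, by 0.24 (SE 0.0394, adjusted p = 7.8e-06), then by 0.45 in all (SE 0.04, adjusted p = 6.0e-11). WARS1, for tryptophan, went from 148, 148 and 150 CPM in VEH to 128, 121 and 128 in SLO ½ and 126, 121 and 122 in SLO. It fell at both doses (-0.24 and -0.27, adjusted p = 1.4e-05 and 1.0e-06), and the doses overlapped.

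Among the other synthetases, EPRS1 fell by 0.58, IARS1 by 0.51, MARS1 by 0.38 and CARS1 by 0.34 with SLO, each also falling with SLO ½. AARS1, for alanine, fell by 0.26 with SLO ½ and by 0.18 with SLO. TARS1 and NARS1 fell with SLO (-0.20 and -0.18) and were not called with SLO ½ (-0.05 and -0.06). SARS1 (-0.04 and -0.06) and GARS1 (-0.03 and -0.08) were called at neither dose, and their 95% intervals with SLO were -0.14 to 0.02 and -0.16 to 0.00, which leaves out a fall of the size seen for LARS1. Between the doses 7 of the 13 were lower with SLO, beside 20.3% of all genes. NARS1 (-0.12, adjusted p = 0.020) lost that call without SLO ½ replicate 1 (0.083) or 3 (0.077) or SLO replicate 1 (0.050) or 2 (0.107). CARS1 (-0.11, adjusted p = 0.050, not called) gained it when VEH replicate 1, 2 or 3 was left out singly (0.040 to 0.047) or without SLO replicate 2 (0.022).

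The same direction was seen in synthetase genes outside the 43. Of 11 other cytosolic synthetase and scaffold genes, 1 rose and 9 fell with SLO (median log2 fold change -0.42), and 1 rose and 7 fell with SLO ½. The shares over all genes were 32.9% higher and 32.1% lower with SLO, and 26.7% and 25.3% with SLO ½. VARS1 for valine was at 114, 115 and 120 CPM in VEH, 97.9, 102 and 102 in SLO ½ and 69.4, 71.3 and 68.7 in SLO, a fall of 0.73 with SLO (adjusted p = 9.9e-15). KARS1 for lysine fell by 0.59. The gene that rose was HARS1 for histidine, named after its value was seen, which went up by 0.21 and 0.18 (adjusted p = 1.4e-04 and 6.3e-04), and the scaffold gene AIMP2 was called at neither dose (0.18 and 0.07).

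In the mitochondrial set of 17 synthetases 10 fell and 1 rose with SLO (58.8% and 5.88%, against 32.1% and 32.9% of all genes, median -0.34). With SLO ½, 8 fell and 1 rose (47.1% and 5.88%, against 25.3% and 26.7% of all genes). The share called in either direction, 64.7% with SLO and 52.9% with SLO ½, was near that of all genes (64.9% and 52%). IARS2 (-0.67) and FARS2 (-0.86) were among those that fell. The gene that rose was MARS2, named after its value was seen (0.61, adjusted p = 9.7e-05).

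**Figure D5:**
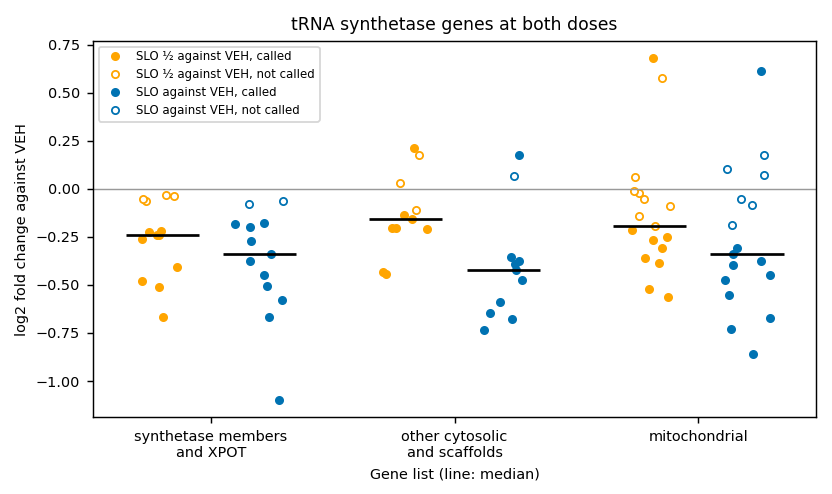
Log2 fold change against VEH (y axis) of tRNA synthetase genes in 3 lists (x axis) with SLO ½ (orange) and SLO (blue), one point a gene, filled where called, with the median as a line. Most points lie below 0 in each list, and the medians with SLO are -0.34, -0.42 and -0.34.

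Upstream of ATF4, the eIF2 kinases and factors were looked at from a list of 21 genes. With SLO 4 rose and 13 fell (median log2 fold change -0.17), and with SLO ½ 4 rose and 9 fell. Over all genes 32.9% rose and 32.1% fell with SLO, and 26.7% rose and 25.3% fell with SLO ½. EIF2S3, the gamma subunit of eIF2, was at 401, 400 and 404 CPM in VEH, 317, 308 and 311 in SLO ½ and 277, 257 and 288 in SLO, a fall of 0.36 and 0.55 (adjusted p = 1.5e-08 and 1.3e-12). PPP1CC, a catalytic subunit that PPP1R15A recruits to eIF2, fell by 0.29 and 0.48, whereas PPP1R15A itself rose. GCN1, the ribosome-bound activator of the amino acid sensing kinase, fell by 0.22 and 0.40.

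The kinases themselves were named after their values were seen. EIF2AK3 (PERK) rose by 0.18 with SLO (adjusted p = 0.0045), EIF2AK1 (HRI) fell by 0.17 and 0.18, and EIF2AK4 (GCN2) fell by 0.10 with SLO (adjusted p = 0.031). EIF2AK2 (PKR), the kinase activated by double-stranded RNA, differed most between the doses among the 4. It was at 193, 192 and 180 CPM in VEH, 242, 211 and 247 in SLO ½ and 167, 147 and 160 in SLO, so that SLO ½ stood highest and SLO lowest. It rose by 0.31 with SLO ½ (adjusted p = 9.1e-06) and fell by 0.25 with SLO (adjusted p = 1.1e-04), and the doses differed by -0.56 (adjusted p = 6.6e-10).

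A further list held 20 other ATF4 and CHOP targets, of which 19 were tested. Here 13 rose and 3 fell with SLO (median log2 fold change 0.44), beside 32.9% higher and 32.1% lower over all genes, and 11 rose and 3 fell with SLO ½, beside 26.7% and 25.3%. PMAIP1 (NOXA), a BH3-only death gene, went from 17.0, 16.3 and 16.5 CPM in VEH to 41.4, 42.4 and 41.9 in SLO ½ and 44.6, 43.9 and 45.5 in SLO, log2 fold changes of 1.34 and 1.43 (adjusted p = 1.0e-16 and 6.3e-18). The death receptor TNFRSF10B (0.49 and 0.81) and the growth arrest gene GADD45A (0.52 and 0.91) rose stepwise. All 3 are also known p53 targets. The study states that the method by which HMC3 was immortalized disrupts the p53 and Rb pathways, and a part of p53 in these rises was not tested. The genes that fell with SLO, named after their values were seen, were GOT1 (-0.65), ERO1A (-0.48) and EIF4EBP1 (-0.28).

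The remaining lists gave mixed counts, to be read beside the 32.9% of all genes that rose and the 32.1% that fell with SLO. Of 18 other folate, serine and proline genes, 16 were tested, and 5 rose and 7 fell with SLO (median -0.21). The trifunctional folate enzyme MTHFD1 (-0.51), its mitochondrial relative MTHFD1L (-0.65) and methionine synthase MTR (-0.48) all fell. Of 18 other amino acid transporters, 15 were tested, and 9 rose and 3 fell (median 0.39). SLC43A2, a carrier of large neutral amino acids, rose by 1.45 (adjusted p = 1.2e-14) and SLC38A4 by 2.59 (adjusted p = 1.2e-13), while the taurine carrier SLC6A6 fell by 0.88 (adjusted p = 2.7e-14). SLC38A4 stayed low, at 1.40, 1.05 and 1.46 CPM in VEH and 8.35, 7.83 and 7.65 in SLO.

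Set side by side over both doses, 8 of the 43 genes rose at both (18.6%, against 22.2% of all genes) and 18 fell at both (41.9%, against 21.3%). The 8 were SESN2, ATF3, SLC1A4, STC2, SLC3A2, SLC7A5, PPP1R15A and CEBPB. A further 7 rose with SLO and were not called with SLO ½ (16.3%, against 10.2%), namely MTHFD2, PSPH, VLDLR, DDIT3, ALDH1L2, CHAC1 and NUPR1. All 7 were also called higher with SLO than with SLO ½, which the way they were picked favours. Of the 18 that fell at both doses, 10 were lower with SLO than with SLO ½, among them XPOT, LARS1, SHMT2, PYCR1 and ATF4. For neither count was the share over all genes of the same pattern taken, so neither is read as particular to these genes. Genes lower with SLO ½ and then higher with SLO than with SLO ½ were PHGDH, SLC7A11, PSAT1 and CEBPG. CTH, SARS1 and GARS1 were called at neither dose.

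Compared per length, the order of levels also shifted. In VEH the most abundant of the 43 genes were SLC38A2 (599 TPM), ATF4 (447 TPM), STC2 (425 TPM) and TARS1 (421 TPM). With SLO the order was STC2 (678 TPM), SLC38A2 (564 TPM), SLC7A5 (398 TPM) and PSAT1 (392 TPM), with ATF4 at rank 6 and XPOT moving from rank 8 to 14. Summed by role, the stress effectors spanned 582 to 630 TPM for VEH, 777 to 795 TPM for SLO ½ and 826 to 839 TPM for SLO, whereas the amino acid synthesis genes spanned 1062 to 1108 TPM for VEH, 830 to 859 TPM for SLO ½ and 870 to 921 TPM for SLO. The transporter sum (1314 to 1469, 1326 to 1431 and 1452 to 1501 TPM) and the regulator sum (859 to 896, 869 to 877 and 876 to 926 TPM) overlapped between groups.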

How the data were processed

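Poly-A RNA of 9 HMC3 libraries was sequenced. Per the labels and the study's methods, the authors trimmed reads with Trimmomatic 0.38 and aligned them to GRCh38 with STAR 2.7.1a. They deposited stranded read counts per gene and TPM values; the annotation release is not given in the sources used here, and 42 of the 43 genes match GENCODE v44 in start and end. Lines without a gene (unmapped, multimapping, no feature, ambiguous) held up to 0.984%, 8.52%, 8.38% and 3.26% of reads and were left out.

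From the deposited counts, genes were filtered with filterByExpr (minimum count 10) and tested with edgeR 4.0.16 (R 4.3.3): TMM scaling, quasi-likelihood fit over all 9 libraries, Benjamini-Hochberg adjustment, called below 0.05. CPM values are TMM-scaled. DESeq2 1.42.0 and limma 3.58.1 on log2(TPM + 1) were among the alternatives, beside other scalings, filters, a replicate block and leaving out each library. The tests were checked on simulated counts. Replicates of every pair differed beyond sampling noise. The genes, lists and motifs were chosen with earlier results of these data known. Values in every library are given for a set always named (ATF4, ATF3, DDIT3, TRIB3, PPP1R15A, ASNS and WARS1). They are also given for genes with the smallest p or the largest change in each role and for those called in opposite directions. In the other lists genes with the smallest p were named, and only some of them have values in every library. Other genes, among them DDIT4 and PHGDH, were named after their values were seen. Some genes that this rule names are not reported here.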

Additional observations from a re-analysis of the deposited data

Results flagged for a closer look

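SLC7A11 was called in opposite directions at the 2 doses against VEH, and the difference itself passed the test: SLO exceeded SLO ½ by 0.77 on the log2 scale (SE 0.0867, edgeR adjusted p = 3.2e-08), with all 3 SLO libraries above all 3 SLO ½ libraries. The rise with SLO was 0.49. The fall with SLO ½ was -0.28 with overlapping libraries.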

How the results depend on the processing

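Of 129 results (43 genes in 3 comparisons), 91 kept their direction and their side of the threshold under every alternative run, 17 to 19 for each, and 38 changed under at least 1; no called result reversed. Leaving out each library in turn gave 15 to 17 genes higher and 20 to 21 lower with SLO against VEH, 7 to 8 and 20 to 24 with SLO ½ against VEH, and 14 to 16 and 11 to 15 with SLO against SLO ½. The median log2 fold change of the 43 genes then ranged from -0.13 (without VEH replicate 1) to -0.072, from -0.16 to -0.11, and from 0.0041 to 0.051 (without SLO ½ replicate 3).

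Scaling by library size alone moved the medians to -0.0064, -0.075 and 0.037 in that order of comparisons, and the median of all genes with SLO to 0.09, with 5624 genes higher and 3870 lower in place of 4843 and 4722. With limma on TPM the SLO ½ median was -0.17 with either pseudocount (1 or 0.1) and without a filter, and the median between the doses was 0.048, 0.050 and 0.048. Without a filter, limma on TPM called 6 genes lower between the doses in place of 13, of the synthetase group 2 in place of 7. Leaving out ASNS and NUPR1, an alternative chosen after seeing the data because of their low or ambiguous counts, removes 1 gene from each count with SLO by construction.

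Same-numbered libraries deviated together only weakly, with correlations of 0.0028 to 0.087, all positive. Libraries with different numbers gave -0.062 to 0.037. The correlations were small, so the numbers were not taken as pairs. A replicate block gave 16 higher and 21 lower with SLO, 8 and 22 with SLO ½, and 15 and 14 between the doses. The cause of these changes was not tested. NUPR1 and ASNS had the lowest counts of the genes described, and for ASNS reads left uncounted as ambiguous may have a part in this.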
